A study of Mus musculus with 5 samples.

Results

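Neuroectoderm lineage markers were followed in mouse embryonic stem cells depleted of Tet1, using 30 named genes that mark neural progenitors, neural patterning, neurons and glia. A probe set annotated to exactly 1 gene was found for 29 of them, and Pax2 was not analysed here. Each gene was read from its brightest probe set, by the mean of the 5 arrays. Of the 29, 21 exceeded the 40th percentile of an array's probe sets, array controls left out, on 1 or more of the arrays and are called kept, and 8 lay below it on all 5 arrays and are called background. The same steps gave 18193 genes in the whole table, of which 13619 were kept.

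The neural lineage arises from the embryonic ectoderm where BMP and Nodal signals are low. Sox1 and Pax6 are among the first transcription factors of the neural plate, Nes and Fabp7 mark its progenitors, and the proneural factors Neurog1, Neurog2 and Neurod1 then drive neurons that express Tubb3, Map2, Dcx and Stmn2. Notch ligands such as Dll1 and Dll3, with the Notch effector Hes5, regulate how many progenitors differentiate. In pluripotent stem cells most of these genes are kept silent or low under Polycomb marks, many at CpG-rich promoters. Tet1 oxidizes methylated cytosine, carries a CXXC domain, and is found mostly at CpG-rich promoters in these cells.

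The study asked which genes depend on Tet1. J1 cells, grown with mouse embryonic fibroblast feeders, received either a control siRNA or a Tet1 siRNA and were collected 4 days later. E14 cells, cultured without feeders, were infected with lentivirus for a scramble shRNA, Tet1 shRNA3387 or Tet1 shRNA2863 and selected in puromycin for 4 days. Each of these 5 groups is 1 array, so line, feeders and means of depletion differ together, and a difference between 2 arrays has no replicate check. Values are log2 probe set levels, and a difference is always the depleted array minus the control array of its own line.

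The depletion and the identity of the cells were checked first. The Tet1 level left was 17.2% of control in J1, 30.6% with shRNA3387 and 54.0% with shRNA2863. All 13 embryonic stem cell markers lay above the 40th percentile on every array, with a median log2 level between 9.87 and 10.59. On the Tet1 siRNA array all 13 of these stem cell markers were lower than in J1 control cells (median difference -0.63), against a median of -0.10 with shRNA3387 and -0.03 with shRNA2863. Of the 17 fibroblast feeder markers with a probe set, 13 or 14 were above the 40th percentile on each array, the feeder-free E14 arrays included. Their summed linear level was 4526 in J1 control and 4797 in J1 Tet1 siRNA cells. In the feeder-free E14 cells it was 3664 with scramble, 2768 with shRNA3387 and 3713 with shRNA2863. In J1 the feeder marker differences ran from -0.72 for Fn1 to 0.43 for Sparc, both named after their values were seen. The part of either list in the results below was not tested.

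The 8 background genes include early neural plate and proneural factors. Sox1, among the earliest neural plate factors, read 2.53 in J1 control cells and 2.48 after Tet1 siRNA, and 2.58, 2.53 and 2.56 with scramble, shRNA3387 and shRNA2863. The others were the forebrain and eye factor Lhx2, the proneural factors Neurog1 and Neurog2, the ventral neural tube factor Nkx6-1, the oligodendrocyte factors Olig1 and Olig2, and the dorsal neural tube factor Pax3. Across these 8 genes levels ran from 2.14 to 2.92, and no gene spanned more than 0.11 over the 5 arrays. Their differences lay between -0.05 and 0.07 in J1, -0.09 and -0.02 with shRNA3387, and -0.07 and -0.01 with shRNA2863. Each of the 8 was therefore within 0.09 of its control on every depleted array. A rise above the percentile was excluded in advance by the rule that set these genes apart. A reading at background cannot show a fall either, so these small differences do not show that the genes were unchanged.

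The line between kept and background was narrow. The 40th percentile lay between 3.03 and 3.12 on the 5 arrays. Just inside it, Lhx5, a forebrain LIM-homeobox factor, read 3.04 on the J1 control array, where the percentile was 3.03, and was under it on the other 4 arrays. Just outside, Pax3 reached 2.92 on the scramble array, where the percentile was 3.12. Irx3 and Pax7 were kept through 1 depleted array each, so their difference there follows from the rule. The number of kept genes above the percentile was 19 in J1 control, 16 in J1 Tet1 siRNA, 18 in scramble, 19 in shRNA3387 and 18 in shRNA2863 cells.

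**Figure D1:**
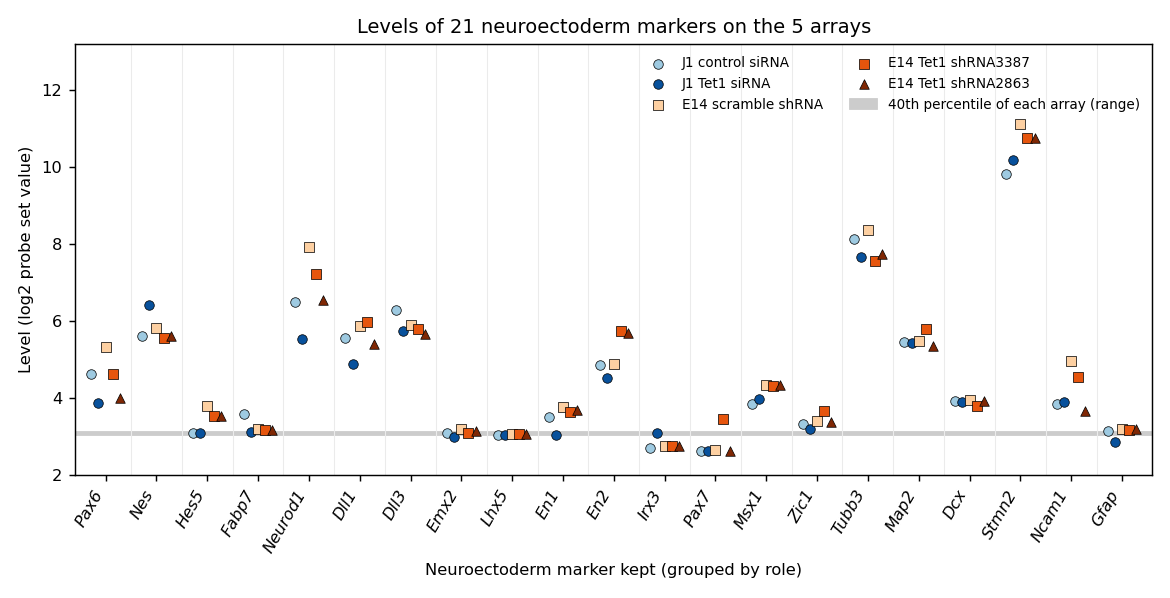
Log2 level of each of the 21 kept neuroectoderm markers on the 5 arrays, 1 point per array, with the range of the arrays' 40th percentiles (3.03 to 3.12) as a grey band. Neurod1, Pax6 and Tubb3 were lower on each depleted array than on the control of the same line, and several markers sit on the band; levels of different genes are not comparable with each other.

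Against this background, Neurod1, Pax6 and Tubb3 were lower on all 3 depleted arrays, Nes was higher in J1, and En2 was higher with each hairpin. None of these differences passed a test after adjustment. At least 1.5-fold lower were 3 of the 21 kept genes in J1 (Pax6, Neurod1 and Dll1; 6.09% of all kept genes), 3 with shRNA3387 (Pax6, Neurod1 and Tubb3; 3.36%) and 4 with shRNA2863 (those 3 and Ncam1; 3.26%). At least 1.5-fold higher were 1 in J1 (Nes; 2.91% of all kept genes), 2 with shRNA3387 (En2 and Pax7, the latter kept only through that array; 5.39%) and 1 with shRNA2863 (En2; 3.63%). With only 21 genes, 1 gene is 4.76% of the list, so the shares higher are near the background. The hairpins share the scramble array, so their counts are not independent of each other. Bulk RNA cannot tell fewer cells of a type from less RNA per cell.

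At the 2-fold size the list held fewer genes. None of the 21 differed 2-fold in J1 (background 1.57%) or with shRNA3387 (background 1.81%), and 3 did with shRNA2863, Pax6, Neurod1 and Ncam1, all lower (background 1.20%). The median difference over the kept markers was -0.10 in J1, -0.09 with shRNA3387 and -0.08 with shRNA2863, beside -0.01, -0.02 and -0.01 over all kept genes. Over the 11 markers left by a 60th percentile filter it was -0.32, -0.25 and -0.35. The split by sign alone, 15 lower and 6 higher in J1, 16 and 5 with shRNA3387, 19 and 1 with shRNA2863 (Irx3 at 0), stood beside 6865 lower and 6198 higher, 7756 and 5682, and 7502 and 5700 over all kept genes. The members' split depended on the scaling of the E14 arrays: median centring gave 11 and 10 with shRNA3387 and 12 and 8 with shRNA2863. Many of these differences are smaller than the offset that the scaling moves.

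**Figure D2:**
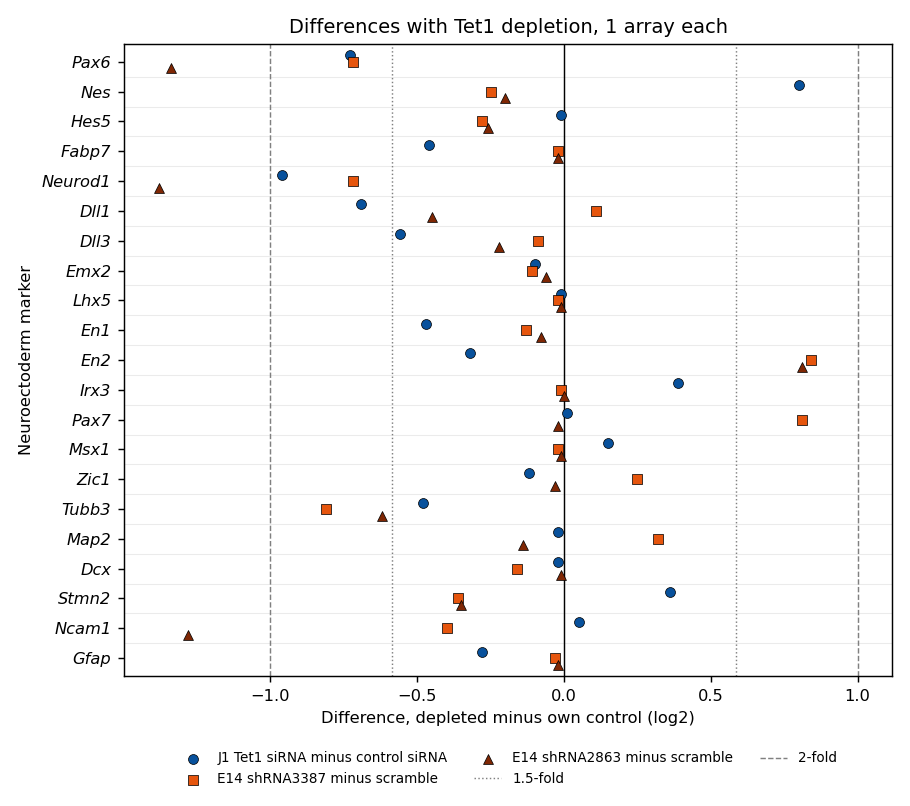
Log2 difference of each kept neuroectoderm marker between a Tet1-depleted array and the control array of its line, 1 array against 1 in each case, with dotted lines at 1.5-fold and dashed lines at 2-fold. Only Pax6, Neurod1 and Ncam1 pass the lower 2-fold line, each with shRNA2863.

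Neurod1, the proneural factor that drives neuron and endocrine differentiation, was the only proneural gene above background and had the largest mean difference of the list. It read 6.50 in J1 control and 5.54 in J1 Tet1 siRNA cells, and 7.93, 7.21 and 6.55 with scramble, shRNA3387 and shRNA2863. Each depleted array was below its own control, by 1.95-fold, 1.65-fold and 2.60-fold, and the shRNA2863 level of 6.55 was next to the J1 control level. The second Neurod1 probe set, also above the 40th percentile on all arrays, read 6.33 and 5.95 in J1 and 7.08, 6.22 and 5.19 in E14. Its differences of -0.38, -0.86 and -1.89 had the same direction on all 3 arrays. In the limma fit over both lines, with 3 depleted and 2 control arrays, Neurod1 differed by -1.01 ± 0.24 (SE; unadjusted p = 0.0159, Benjamini-Hochberg adjusted p = 0.70 over 13619 genes).

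Pax6, a paired-box factor of the forebrain, eye and radial glia, had a similar pattern on the probe set used. Its levels were 4.61 and 3.88 in J1 control and Tet1 siRNA cells, and 5.33, 4.61 and 3.99 with scramble, shRNA3387 and shRNA2863. The depleted arrays were 1.66-fold, 1.65-fold and 2.53-fold below their controls. A second Pax6 probe set above the percentile read 3.73, 3.77, 3.78, 3.96 and 3.77 in the same order, with differences of 0.04, 0.18 and -0.01, and the other 3 were at background. The lower Pax6 signal therefore rests on 1 of 5 probe sets, and the median over all 5 gave differences of 0.01, -0.03 and 0.00. In the limma fit over both lines Pax6 differed by -0.90 ± 0.23 (SE; unadjusted p = 0.0202, adjusted p = 0.70).

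Tubb3, the neuronal beta-tubulin, has 1 probe set. It read 8.14 and 7.66 in J1 control and Tet1 siRNA cells and 8.36, 7.55 and 7.74 with scramble, shRNA3387 and shRNA2863. All 3 depleted arrays lay below both control arrays, by 1.39-fold, 1.75-fold and 1.54-fold against their own. The limma difference over both lines was -0.61 ± 0.12 (SE; unadjusted p = 0.00913, adjusted p = 0.70), the smallest unadjusted p of the list.

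Over both lines limma called 0 of the 21 kept markers at an adjusted p under 0.05, and 0 of 13619 genes (background 0%). At an unadjusted p under 0.05 there were 3 markers lower, Pax6, Neurod1 and Tubb3 (14.3% of the 21, against 4.01% of all kept genes lower), and 0 higher (2.86% of all kept genes). For E14 alone limma called 0 markers and 0 genes, and at an unadjusted p under 0.05 there were 3 markers lower, Hes5, Tubb3 and Stmn2 (background 6.58%), and 1 higher, En2 (background 4.43%). The fit has 2 residual degrees of freedom over both lines and 1 in E14. No group has a replicate array, and no label says that arrays come from separate cultures. In E14 a gene's own error comes from the gap between the 2 hairpins. Over both lines that error also holds any difference in effect between J1 and E14. Limma combines it with a prior variance from all kept genes. A p-value here therefore does not measure the spread between replicate cultures. With each array left out in turn the estimates ran from -0.84 to -1.17 for Neurod1, -0.725 to -1.035 for Pax6, and -0.48 to -0.715 for Tubb3. Their sign was fixed by the 3 differences, which are all negative. Without either J1 array or the scramble array the unadjusted limma p of Neurod1 and Pax6 lay between 0.0969 and 0.216, and that of Tubb3 was 0.0871 without scramble.

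**Figure D3:**
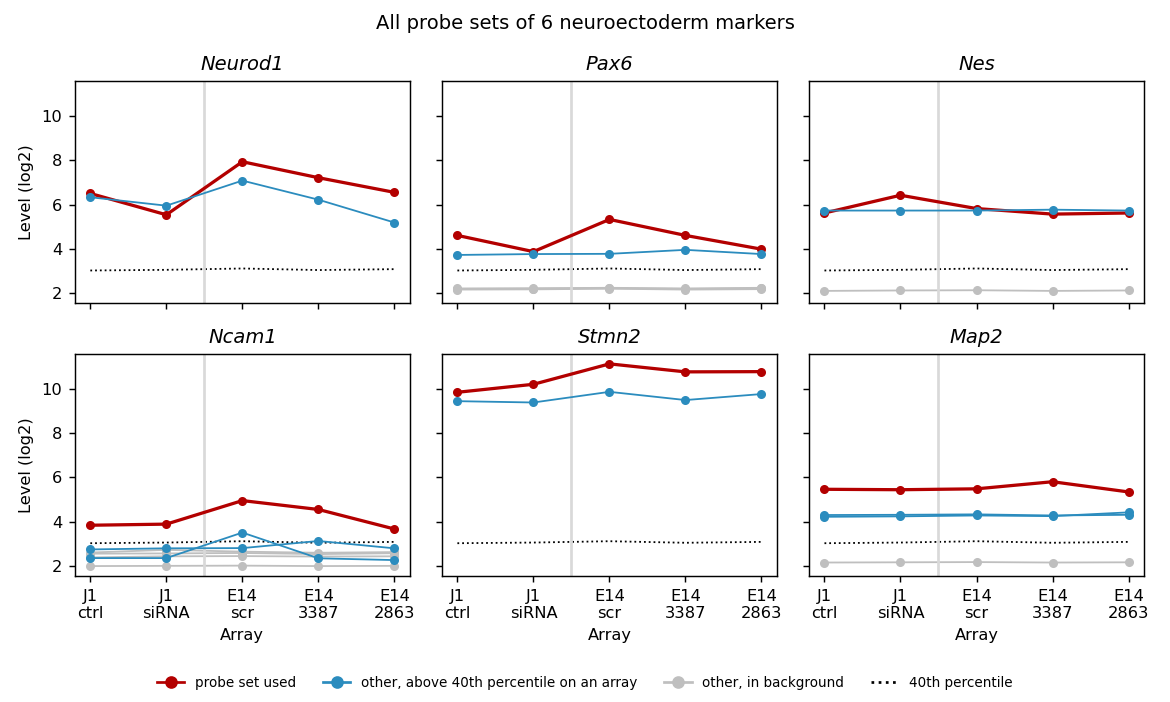
Log2 levels of every probe set of Neurod1, Pax6, Nes, Ncam1, Stmn2 and Map2 on the 5 arrays, with the probe set used in red, other probe sets above the 40th percentile on an array in blue, and those at background in grey; the dotted line is the 40th percentile. Both Neurod1 probe sets go down from control to depleted arrays in each line, while for Pax6 and Nes only the probe set used does what the text describes.

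The promoters of these genes were set beside the expression values because Tet1 is known for CpG-rich promoters. RefSeq promoter windows on GRCm38.p6 matched 24 of the 30 names. In the 250 bases before the start, the median over 30 windows of the 24 genes was 20 CpG, against 6 over all 32851 windows. The stretches below belong to Neurod1, Pax6 and Tubb3, which had the largest mean differences of the list, and to Nes, which was higher in J1. They are written from 5′ to 3′ on the strand of the gene, with CpG pairs in capitals.
Neurod1, chr2:79456637-79456886, minus strand, 22 CpG: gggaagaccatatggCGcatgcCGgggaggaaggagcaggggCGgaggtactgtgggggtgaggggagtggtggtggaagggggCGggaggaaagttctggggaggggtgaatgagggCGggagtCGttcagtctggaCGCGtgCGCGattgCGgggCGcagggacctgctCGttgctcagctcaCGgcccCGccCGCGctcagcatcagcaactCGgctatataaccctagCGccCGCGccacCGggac
Pax6, chr2:105668646-105668895, plus strand, 15 CpG: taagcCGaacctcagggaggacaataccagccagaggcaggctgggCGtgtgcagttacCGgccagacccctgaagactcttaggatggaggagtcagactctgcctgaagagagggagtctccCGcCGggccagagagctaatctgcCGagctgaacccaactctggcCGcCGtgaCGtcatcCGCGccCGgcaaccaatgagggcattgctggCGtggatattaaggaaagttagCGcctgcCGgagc
Pax6, chr2:105682213-105682462, plus strand, 15 CpG: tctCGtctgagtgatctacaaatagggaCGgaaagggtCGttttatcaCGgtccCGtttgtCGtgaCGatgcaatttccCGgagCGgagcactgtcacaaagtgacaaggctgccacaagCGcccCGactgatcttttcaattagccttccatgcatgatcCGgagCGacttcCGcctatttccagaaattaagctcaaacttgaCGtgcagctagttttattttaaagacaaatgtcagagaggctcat
Tubb3, chr8:123411303-123411552, plus strand, 21 CpG: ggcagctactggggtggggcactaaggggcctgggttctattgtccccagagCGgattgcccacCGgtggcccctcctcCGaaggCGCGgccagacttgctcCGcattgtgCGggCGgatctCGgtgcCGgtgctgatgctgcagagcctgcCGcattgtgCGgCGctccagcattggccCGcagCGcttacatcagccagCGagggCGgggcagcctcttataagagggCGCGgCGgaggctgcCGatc
Nes, chr3:87970843-87971092, plus strand, 15 CpG: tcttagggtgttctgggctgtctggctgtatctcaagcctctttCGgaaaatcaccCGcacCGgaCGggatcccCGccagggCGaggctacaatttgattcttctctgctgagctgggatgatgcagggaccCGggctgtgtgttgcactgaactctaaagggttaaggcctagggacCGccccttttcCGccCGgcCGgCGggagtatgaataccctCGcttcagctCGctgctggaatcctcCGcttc

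All 5 stretches were CpG-rich. As many CpG or more were found in 14.8% of all windows for Neurod1, 16.3% for Tubb3, and 27.3% for each Pax6 window and for Nes. The background genes did not have poorer promoters: their 7 windows had a median of 25 CpG, against 15 for the 20 windows of kept genes. Among kept genes the range was wide, from 2 CpG for the astrocyte gene Gfap and 3 for each Dcx window to 32 for Hes5 and 34 for Map2. The E-box CANNTG, which reads alike on both strands and is bound by proneural factors, was present in 12 of the 30 windows of the list (40%) and in 66.2% of all windows. Of the stretches printed, Neurod1 and the second Pax6 window hold 1 such E-box each. These are counts of letters and describe no binding.

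**Figure D4:**
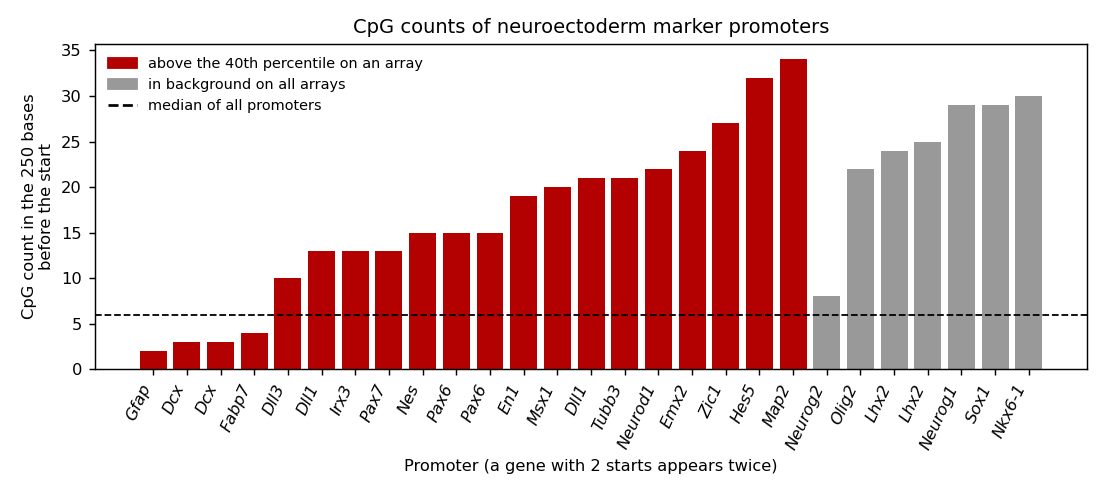
CpG count in the 250 bases before each RefSeq start of the markers with expression values, with kept genes in red and background genes in grey; the dashed line is the median of 6 over all windows. The background genes, at 8 to 30 CpG, lie above that median, as do most kept genes, with Gfap, Dcx and Fabp7 below it.

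Among the other progenitor genes, Nes was higher on the J1 depleted array and slightly lower on both hairpin arrays. Nes encodes nestin, an intermediate filament of neural progenitors that some mesenchymal cells also make. It read 5.62 in J1 control and 6.42 in J1 Tet1 siRNA cells, 1.74-fold higher, and 5.82, 5.57 and 5.62 with scramble, shRNA3387 and shRNA2863. The Tet1 siRNA array was thus the highest of the 5, and the other 4 lay within 0.25 of each other. The second Nes probe set above the percentile stayed between 5.73 and 5.77 on all arrays. Of the fibroblast feeder markers in J1, 8 of the 14 kept were lower and 6 higher with Tet1 siRNA (median -0.095), and Postn, Dcn and Col6a1 were under the percentile on every array. The part of feeder cells in the Nes signal was not tested.

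Hes5, a Notch effector that holds progenitors undifferentiated, read 3.09 and 3.08 in J1 control and Tet1 siRNA cells, next to the percentile, and 3.8, 3.52 and 3.54 with scramble, shRNA3387 and shRNA2863. Both hairpin arrays were 0.28 and 0.26 below scramble, a limma difference of -0.27 ± 0.04 in E14 (SE, 2 hairpin arrays and 1 scramble array; unadjusted p = 0.0138, adjusted p = 0.37). The other Hes5 probe set was at background on all arrays, with hairpin differences of 0.03 and -0.01, so it gives no check. Fabp7, the radial glia fatty acid binding protein, read 3.58 in J1 control cells and between 3.12 and 3.18 on the other 4 arrays. Fabp7 was therefore close to the percentile everywhere but in J1 control cells.

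The Notch ligands were lower with Tet1 siRNA in J1. Dll1, the main activating ligand of neural progenitors, read 5.56 and 4.87 in J1 control and Tet1 siRNA cells (1.61-fold lower) and 5.86, 5.97 and 5.41 with scramble, shRNA3387 and shRNA2863. The hairpin arrays lay on either side of the scramble level, at differences of 0.11 and -0.45. Dll3, a ligand that acts mainly within the cell and in somite segmentation, read 6.29 and 5.73 in J1 and 5.89, 5.80 and 5.67 in E14. Its J1 difference was -0.56, and its E14 differences were -0.09 and -0.22. Over both lines limma gave -0.39 ± 0.25 for Dll1 and -0.33 ± 0.14 for Dll3 (SE; adjusted p = 0.72 for each).

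Of the regional patterning factors, En2 alone was at least 1.5-fold different with each hairpin. En2, an engrailed homeobox factor of the midbrain and hindbrain, read 4.85 and 4.53 in J1 control and Tet1 siRNA cells and 4.89, 5.73 and 5.70 with scramble, shRNA3387 and shRNA2863. The 2 hairpin arrays were within 0.03 of each other and were 1.79-fold and 1.75-fold above scramble, while the J1 depleted array was the lowest of the 5. In E14 the limma difference was 0.825 ± 0.07 (SE; unadjusted p = 0.00549, adjusted p = 0.34). Its paralogue En1 read 3.50 and 3.03 in J1 and 3.77, 3.64 and 3.69 in E14. En1 was lower in J1, as En2 was, by 0.47, which put it under the percentile, and its hairpin differences were -0.13 and -0.08. En2 has 1 probe set, so its values have no second check.

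The other patterning factors gave small or single differences, mostly at levels near the percentile. Pax7, a dorsal neural tube and muscle progenitor factor, read 3.45 with shRNA3387 and between 2.61 and 2.64 on the other 4 arrays, and its second probe set stayed at background. Irx3, a neural tube and hindbrain factor, read 3.10 with Tet1 siRNA and between 2.71 and 2.75 elsewhere. Both values are single readings. Irx3 lay just over that array's percentile of 3.06. Pax7 lay further above the percentile of 3.05, next to the shRNA3387 array's median of 3.46. Zic1, a dorsal neural plate zinc-finger factor, read 3.31 and 3.19 in J1 and 3.41, 3.66 and 3.38 in E14, where shRNA3387 was the highest. Msx1, a roof plate factor under BMP control, differed by 0.15, -0.02 and -0.01, but was 0.51 higher in scramble than in J1 control cells. Its second probe set, also above the percentile on all arrays, read 3.22 in J1 control and 3.24 in scramble. Emx2, a cortical homeobox factor, and Lhx5 differed by at most 0.11 on any array.

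Among the neuron genes other than Tubb3, Stmn2 and Ncam1 were higher in E14 scramble than in J1 control cells and lower with both hairpins than with scramble. Stmn2, a regulator of microtubules in growing axons, read 9.83 and 10.19 in J1 control and Tet1 siRNA cells and 11.11, 10.75 and 10.76 with scramble, shRNA3387 and shRNA2863. Each E14 array was above both J1 arrays. Depletion went with differences of 0.36 in J1 and -0.36 and -0.35 with the hairpins, and the E14 value in limma was -0.355 ± 0.05 (SE; unadjusted p = 0.0156, adjusted p = 0.37). The second Stmn2 probe set differed by -0.06, -0.37 and -0.10, so the higher signal in J1 was seen in only 1 of 2 probe sets.

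Ncam1, the neural cell adhesion molecule, read 3.84 and 3.89 in J1 control and Tet1 siRNA cells and 4.95, 4.55 and 3.67 with scramble, shRNA3387 and shRNA2863. Only the shRNA2863 array came down to the J1 level, 2.43-fold below scramble. Of 6 other probe sets, 1 was above the percentile with scramble only, at 3.51, and read between 2.27 and 2.36 on the other arrays. Its hairpin differences were -1.16 and -1.24, and their direction follows from that. Another was above the percentile with shRNA3387 only, at 3.13. The median over the 7 gave hairpin differences of -0.11 and -0.07. Map2, a dendritic microtubule protein, differed by -0.02, 0.32 and -0.14 on the probe set used. Its higher signal with shRNA3387 was not seen in the other Map2 probe sets above the percentile. Dcx, a protein of migrating neurons, differed by -0.02, -0.16 and -0.01. Gfap, the astrocyte filament, read 3.13 and 2.85 in J1 and 3.17 to 3.20 in E14, and a second probe set went the other way in J1 by 0.28.

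The hairpins left different amounts of Tet1, and the markers were compared between them. On the probe sets used, Neurod1 was 0.66, Pax6 0.62, Dll1 0.56 and Ncam1 0.88 higher with shRNA3387, which left less Tet1, than with shRNA2863. Their differences from scramble were thus larger with the hairpin that left more Tet1. A second probe set showed this for Neurod1 (-0.86 and -1.89) but not for Pax6 (0.18 and -0.01). Another Ncam1 probe set, above the percentile with scramble only, differed by -1.16 and -1.24. Dll1 has no other probe set. Pax7 and Map2 were also higher with shRNA3387, by 0.83 and 0.46, but there the larger difference from scramble was with shRNA3387 (0.81 against -0.02 for Pax7, 0.32 against -0.14 for Map2). Pax7 was kept only through the shRNA3387 array, so its gap follows from the filter. The other Map2 probe sets above the percentile on all arrays differed from scramble by -0.05 and -0.03 with shRNA3387. With shRNA2863 these Map2 probe sets differed by -0.02 and 0.14. Tubb3 was 0.19 below its shRNA2863 level with shRNA3387. These are differences between 1 array and 1 array. The median size of the gap between the hairpins was 0.05 over the kept markers and 0.11 over all kept genes.

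The control arrays of the lines were also compared. The median size of their gap was 0.22 over the kept markers and 0.26 over all kept genes. The median size of the difference with depletion was 0.32 in J1, 0.25 with shRNA3387 and 0.14 with shRNA2863 over the markers, beside 0.16, 0.14 and 0.12 over all kept genes. E14 scramble cells were above J1 control cells by 1.43 for Neurod1, 1.28 for Stmn2 and 1.11 for Ncam1, the 3 kept markers with a 2-fold gap (background 8.36%). Second probe sets read 7.08 in scramble and 6.33 in J1 control for Neurod1, and 9.85 and 9.43 for Stmn2, gaps under 2-fold. An Ncam1 probe set above the percentile with scramble only read 3.51 and 2.36. Hes5 and Pax6 were 0.71 and 0.72 higher in scramble, and Dll3 and Fabp7 were each 0.40 lower. The second Pax6 probe set above the percentile read 3.78 in scramble and 3.73 in J1 control. Line, feeders and delivery cannot be told apart here.

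Whether the effect of depletion differed between the lines was tested directly. Limma called 0 of the 21 markers and 0 of 13619 genes at an adjusted p under 0.05, and 8 markers had an unadjusted p under 0.05, against 13.9% of all kept genes. The 8 were Nes, Hes5, Fabp7, En1, En2, Irx3, Stmn2 and Gfap. Irx3 was kept only through the J1 array on which it was high, so its place among them follows from the filter. The largest were En2, with an E14 effect minus J1 effect of 1.145 ± 0.11 (SE; unadjusted p = 0.00675), and Nes, with -1.025 ± 0.13 (SE; unadjusted p = 0.0123), each at an adjusted p of 0.33. A gene's own error here comes only from the pair of hairpin arrays, which were within 0.05 of each other for each of these 8 genes. Limma combines it with a prior variance from all kept genes, so Fabp7, with a hairpin gap of 0, still had an SE of 0.048. For Neurod1 the difference of effects was -0.09 ± 0.61 and for Pax6 -0.30 ± 0.56 (SE), wide enough to hold differences of either direction.

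Other genes of the neural pathways, from lists of non-members, differed in both directions, and limma called 0 of them over both lines. Of 37 further neural plate regulators 27 were kept. By 1.5-fold, 5 were lower and 0 higher in J1, 2 and 4 with shRNA3387, and 2 and 2 with shRNA2863. Over all kept genes 6.09% were lower and 2.91% higher in J1, 3.36% and 5.39% with shRNA3387, and 3.26% and 3.63% with shRNA2863. Sox3, a SoxB1 partner of Sox1, differed by 0.13, 2.88 and 1.79, while the hindbrain factor Gbx2 differed by -1.29, -1.32 and -1.25 (limma over both lines, unadjusted p = 0.000252, adjusted p = 0.70). Zic2, a paralogue of Zic1, differed by 0.01, -1.35 and -1.59, and the forebrain factor Otx2 by -2.03, 0.18 and -0.15. Among the 28 kept of 33 neuron and glia genes, 6 were lower and 3 higher in J1, 1 and 5 with shRNA3387, and 2 and 1 with shRNA2863. There, Dpysl3, an axon growth protein, differed by -0.64, -0.89 and -1.01. The neurofilament genes Nefl (1.36, 0.89 and 0.09) and Nefm (0.66, 0.38 and 0.54) were higher. Gad1, which makes GABA, differed by -0.17, -0.47 and -1.29. It was above the percentile only with scramble (4.34) and shRNA3387 (3.87), so its J1 difference lay between background levels. The genes named from both lists had the largest mean differences, a rule that favours a single direction.

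In the Notch pathway outside Dll1, Dll3 and Hes5, 28 of 32 genes were kept. By 1.5-fold, 2 were lower and 2 higher in J1, 1 and 5 with shRNA3387, and 3 and 3 with shRNA2863. Beside these stood 6.09% lower and 2.91% higher of all kept genes in J1, 3.36% and 5.39% with shRNA3387, and 3.26% and 3.63% with shRNA2863. Notch4 differed by -2.01, -0.43 and -0.79, reading 2.76 with Tet1 siRNA, which is under the percentile, and the ligand Jag1 by -0.22, -0.76 and -1.01. Higher were Pofut1, which adds fucose to Notch receptors (0.66, 1.02 and 1.66), and Adam10, the protease that cleaves them (0.95, 0.69 and 0.59). These 4 genes were picked for the largest mean of the 3 differences in the list. That rule favours genes with a single direction, so their shared direction on all 3 depleted arrays follows in part from it.

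BMP signalling opposes neural fate, and of 22 genes of that pathway 19 were kept. By 1.5-fold, 1 was lower and 3 higher in J1, 2 and 4 with shRNA3387, and 0 and 4 with shRNA2863. The shares lower and higher over all kept genes were 6.09% and 2.91% in J1, 3.36% and 5.39% with shRNA3387, and 3.26% and 3.63% with shRNA2863. The type I receptor gene Acvr1 differed by 0.63, 1.55 and 0.68, and the type II receptor Bmpr2 by 0.00, 0.69 and 1.14. The signal transducer Smad1 differed by 0.31, 0.60 and 0.61, and the BMP and activin antagonist Fst by -0.33, 1.0 and 1.03. These genes were picked for the largest mean of the 3 differences, a rule that favours a single direction. The median differences over the kept genes of the list were 0, 0.10 and 0.01. The complex of Rest, which represses neuron genes elsewhere in the body, had 12 of 12 genes kept, with 3 lower and 1 higher in J1, 0 and 1 with shRNA3387 and 0 and 0 with shRNA2863. Its largest mean differences were those of the corepressors Sin3a (-0.97, -0.33 and -0.25) and Rcor2 (-0.73, -0.54 and -0.24), of Hmg20b (-0.38 on each array) and of Sin3b (0.65, 0.20 and 0.09).

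The other germ layers were counted in the same way. Of the 18 kept mesoderm markers, 1 was lower and 2 higher in J1, 1 and 1 with shRNA3387, and 1 and 2 with shRNA2863. Of the 17 kept endoderm markers, 1 was lower and 3 higher in J1, 3 and 1 with shRNA3387, and 3 and 0 with shRNA2863. Over all kept genes the shares were 6.09% and 2.91% in J1, 3.36% and 5.39% with shRNA3387, and 3.26% and 3.63% with shRNA2863. The neuroectoderm counts were 3 and 1, 3 and 2, and 4 and 1 among 21 genes, and the difference between the lists was not tested. The medians of the mesoderm list were 0.015, -0.075 and -0.01, and those of the endoderm list 0.07, -0.04 and -0.03.

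**Figure D5:**
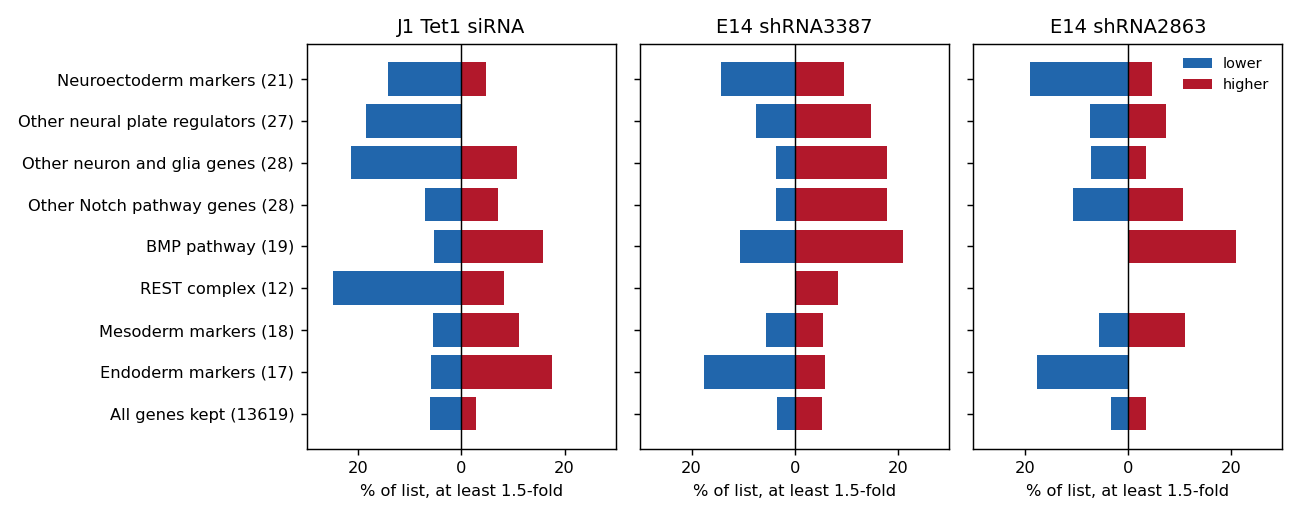
Share of each list's kept genes (number in brackets) that were at least 1.5-fold lower (blue, to the left) or higher (red, to the right) on the depleted array than on its control, for the 3 depletions. The neuroectoderm markers had 3, 3 and 4 of 21 genes lower; a list of this size moves by about 5 percentage points with 1 gene.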

How the data were processed

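RNA of 5 samples was measured on Affymetrix arrays, 1 array per group. The authors deposited probe set summaries that were read as log2 from their range (1.38 to 14.12); how they were background-corrected, summarized and normalized is not given in the sources used here. They were used as deposited, and all 5 columns were assigned to a sample (0 left over). Gene names came from GEO's annotation of the platform, in which 34958 probe sets carry 1 symbol and 932 several, and 64 array controls were left out. Precision is limited by the number of arrays. The 30 members and the 10 lists of other genes (7 of pathways and germ layers, 3 of cell types) were chosen with earlier results of these data known.

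Models were fitted in R 4.3.3 by limma 3.58.1, whose prior variance followed mean level, over all 13619 kept genes, two-sided, with Benjamini-Hochberg adjustment: a line term and a Tet1 term over both lines, and 4 means (2 controls, J1 depleted, E14 hairpins) for E14 and for the difference between lines. The fits were tested on simulated data. Single pairs of arrays were described at 2-fold and 1.5-fold. All members were to be named, and of each other list up to 4 genes by mean difference; for the mesoderm and endoderm lists only counts are given. Other probe sets were compared for members only. Alternatives were quantile normalization, median centring, the median over probe sets, no filter, a 60th percentile filter, 1.5-fold, no trend, no line term and leaving out each array.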

Additional observations from a re-analysis of the deposited data

Results flagged for a closer look

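In 4 genes the J1 array and both hairpin arrays went in opposite directions, with effects at least 1.5-fold apart. The E14 effect minus the J1 effect was -1.025 for Nes, 1.145 for En2, -0.715 for Stmn2 and -0.89 for Ncam1. A limma test of the difference called none of them: the adjusted p was 0.33 for Nes, En2 and Stmn2 and 0.69 for Ncam1, with unadjusted p of 0.0123, 0.00675, 0.00864 and 0.369. The J1 difference of Ncam1 was only 0.05. For Stmn2 the second probe set had the same direction on all 3 arrays, and the second Nes probe set differed by 0.00 in J1.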

How the results depend on the processing

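With 1 array per group, array-to-array error is unknown for every single pair. No paired analysis was possible because the labels give no replicate numbers and each group is 1 array; the line term sets arrays within their line. The limma counts over both lines, in E14 and for the difference between lines were 0 members under each alternative run for them; leave-one-out and the fit without a line term were run only over both lines. The count of members 2-fold different in J1 was 1 with median centring. At 1.5-fold the counts were 4 in J1, 5 with shRNA3387 and 5 with shRNA2863. Taking the median over probe sets left 1 member 2-fold different with shRNA2863 and gave 0.01 in J1 and 0.00 with shRNA2863 for Pax6. The 60th percentile filter, which keeps 11 members, moved the median difference to -0.32 in J1, -0.25 with shRNA3387 and -0.35 with shRNA2863. Quantile normalization and the absence of a filter left the 2-fold counts as they were.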

Other observations

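Markers of neural crest and surface ectoderm, the tissues next to the neural plate, were also counted. Of 14 genes 11 were kept, and limma called 0 of them over both lines. By 1.5-fold, 1 was lower and 0 higher in J1, 2 and 0 with shRNA3387, and 1 and 0 with shRNA2863. The shares lower and higher over all kept genes were 6.09% and 2.91% in J1, 3.36% and 5.39% with shRNA3387, and 3.26% and 3.63% with shRNA2863. Foxd3, a factor of neural crest and of pluripotent cells, read 4.98 and 3.94 in J1 control and Tet1 siRNA cells and 6.39, 6.32 and 6.37 with scramble, shRNA3387 and shRNA2863. Trp63, an epidermal factor, read 3.56 and 3.57 in J1 and 4.43, 3.49 and 3.58 in E14. Ets1, a factor of migrating crest and of blood vessels, read 5.50 and 5.55 in J1 and 4.16, 4.51 and 4.63 in E14, and Tfap2a, a factor of both tissues, read 4.46 and 4.0 in J1 and 4.23, 4.19 and 3.95 in E14.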
